A study of Mus musculus with 8 samples.

Results

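Transcripts of 9 genes of the early B-cell pathway were followed through 4 groups of Ebf1-deficient mouse pro-B cells. The genes were Ebf1, Pax5, Foxo1, Pou2af1, Vpreb1, Igll1, Cd79a, Cd79b and Blnk. All non-control probes whose transcript accession maps to these 9 symbols were taken, which gave 11 of the 39378 probes analysed and 9 of 20125 named genes. Foxo1 and Pax5 each had a second probe. The cells derive from fetal liver progenitors of Ebf1-deficient mice, so every group, controls included, carries the Ebf1 mutation. Pro-B(+) cells were established on OP9 stromal cells and keep the potential for the T-cell lineage. Pro-B(-) cells were established on the thymic stromal line TD7 and lack that potential, so the stroma of origin and the line cannot be told apart. The remaining groups are pro-B(-) cells that received the empty lentiviral vector, pro-B(-)/Mock, or the same vector with Lmo2, pro-B(-)/LMO2. Total RNA of 2 cultures or labellings per group was hybridised to 8 one-colour arrays, and the labels do not say which of these the replicates are. For the array genes that differ between the parental lines, the paper names 2 independent biological replicates, and it does not describe the replicates of the vector groups. The p-values therefore measure the spread between these arrays, which may be technical in the vector groups. No source read here says whether the cells were freed of stroma before RNA isolation, or whether a line is 1 clone.

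EBF1 and FOXO1 act early in B-cell specification, together with the E2A proteins, and EBF1 is required for normal expression of Pax5, the B-cell commitment factor. Pou2af1 encodes OBF1 (OCA-B), a coactivator that binds the octamer proteins OCT1 and OCT2 on DNA. Vpreb1 and Igll1 encode the components of the surrogate light chain, VpreB and lambda5, which pairs with the immunoglobulin heavy chain in the pre-B-cell receptor. Cd79a and Cd79b encode its signalling chains, Ig-alpha and Ig-beta, and Blnk encodes the adaptor that links the kinase SYK to downstream enzymes. In normal pro-B cells many of these genes are among the best known targets of EBF1 and PAX5.

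The upstream sequences of 4 of these genes are shown because their transcripts differed between groups and because the stretch holds a motif of a factor named above. They are the 250 bases before the RefSeq transcription start in build GRCm38.p6, printed 5′ to 3′ on the strand of the gene, with motif matches in capitals. Foxo1 lies on the plus strand (chr3:52268087-52268336), and Vpreb1 (chr16:16869256-16869505), Igll1 (chr16:16863986-16864235) and Blnk (chr19:40994222-40994471) lie on the minus strand. Vpreb1 and Igll1 are neighbours, with starts 5.27 kb apart.
Foxo1: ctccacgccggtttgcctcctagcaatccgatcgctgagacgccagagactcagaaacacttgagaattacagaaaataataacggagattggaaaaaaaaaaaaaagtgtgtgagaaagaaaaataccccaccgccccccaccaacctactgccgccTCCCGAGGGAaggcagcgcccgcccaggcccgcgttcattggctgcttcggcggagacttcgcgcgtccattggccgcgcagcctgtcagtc
Vpreb1: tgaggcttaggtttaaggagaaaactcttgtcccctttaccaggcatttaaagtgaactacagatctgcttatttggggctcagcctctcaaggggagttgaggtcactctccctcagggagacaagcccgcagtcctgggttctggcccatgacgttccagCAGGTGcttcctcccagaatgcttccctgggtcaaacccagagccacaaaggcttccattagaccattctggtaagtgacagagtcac
Igll1: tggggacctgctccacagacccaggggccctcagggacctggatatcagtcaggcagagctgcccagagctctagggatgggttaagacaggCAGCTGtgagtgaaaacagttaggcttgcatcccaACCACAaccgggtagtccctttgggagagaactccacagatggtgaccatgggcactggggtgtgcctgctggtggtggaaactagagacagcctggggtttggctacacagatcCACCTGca
Blnk: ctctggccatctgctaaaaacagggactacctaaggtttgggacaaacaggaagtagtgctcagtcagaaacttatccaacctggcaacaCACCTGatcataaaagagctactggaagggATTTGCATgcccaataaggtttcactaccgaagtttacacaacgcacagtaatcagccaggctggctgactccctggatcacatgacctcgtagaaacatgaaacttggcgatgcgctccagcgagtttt

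The 6 motifs, searched on both strands, were the palindromic EBF consensus, whose middle pair of bases is free, the octamer (ATGCAAAT), a pair of E-boxes (CAGGTG and CAGCTG), a RUNX site (TGTGGT) and a FOXO site (GTAAACA). They do not overlap each other in these stretches. The Foxo1 stretch held an EBF match (TCCCGAGGGA) from base -92 to base -83 counted from the start, and the motif was found in 0.779% of the 32851 promoters of this length. The Blnk stretch held the octamer on the opposite strand from base -130, found in 1.6% of promoters, and a CAGGTG E-box from base -160. Vpreb1 had a CAGGTG E-box from base -88. Igll1 had a CAGCTG E-box from base -158, a RUNX site on the opposite strand from base -123 and a CAGGTG E-box from base -8. These shorter motifs are common, with CAGGTG in 17.2%, CAGCTG in 13% and TGTGGT in 14% of promoters. Of the other members, Cd79a had a CAGGTG from base -154 and the first of 2 Ebf1 starts had a TGTGGT from base -12. The second Ebf1 start, Pax5 and Pou2af1 had no match, and GTAAACA, found in 3.17% of promoters, matched in none of the stretches. Sequences were found for 8 of the 9 genes, all but Cd79b. A match is a string of letters and not a measured binding site. Only exact matches were searched, so a stretch without a match may still hold a site that departs from these strings.

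**Figure D1:**
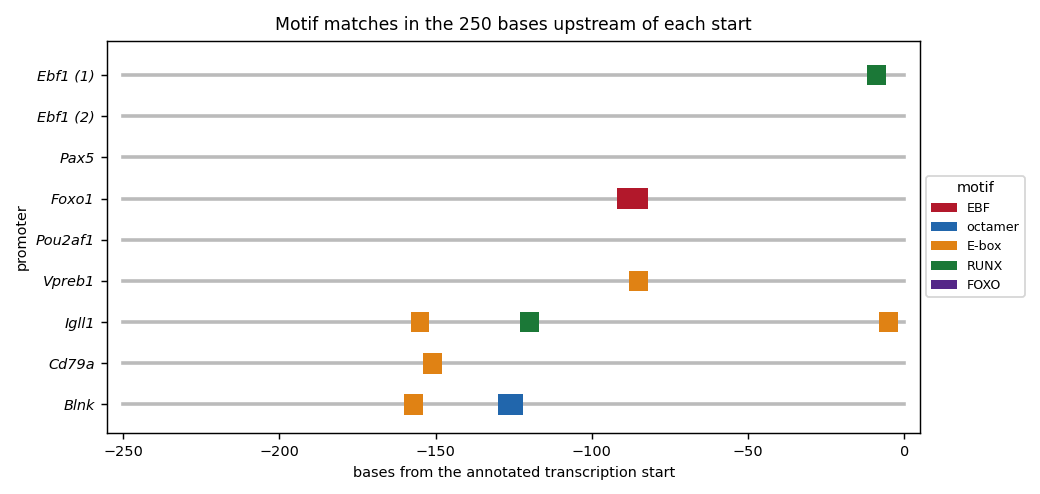
Motif matches in the 250 bases before each annotated start (x axis, bases from the start), 1 line per promoter, with a block for each match coloured by motif family. The EBF-type block lies on Foxo1, the octamer block on Blnk, and 3 blocks lie on Igll1.

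Values are normalized log2 intensities, in which 0 is the 75th percentile of the array, and a difference of 1 is 2-fold. Probes well above background made up 56.5% to 61.2% of each array, and the lowest signal that counted as such, the floor, lay between -6.25 and -5.57. Replicate arrays correlated at r = 0.9988 to 0.9991 over 20364 probes above background on all 8 arrays, and no probe was saturated. Both parental groups were on 1 slide and both vector groups on the other, so that comparisons across slides carry slide and group together. Genes were called at an adjusted p under 0.05 in limma. Calls were frequent across the whole array, with 48.9% of tested probes called between the parental lines and 64.8% called with Lmo2, so that a call alone sets no gene apart. Scaling on the median of each array shifted the median probe by -0.29 in the first and by -0.20 in the second comparison, and changed the share of calls that were higher from 42.6% to 15.8% and from 43.3% to 24.6%.

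Between the parental lines, the genes of the receptor split into parts that differed in opposite directions. Cd79b and Blnk were far higher in pro-B(+) cells and Foxo1 was moderately higher, whereas Vpreb1, Igll1 and, slightly, Ebf1 were lower. Pax5 and Cd79a, both near background, did not pass the test, and Pou2af1 was not above background in either line. Of 8 members tested, 6 were called, 3 in each direction, where 48.9% of all tested probes were called, 20.8% as higher and 28.1% as lower. With Lmo2, Cd79b, Blnk, Foxo1 and Pou2af1 rose and Ebf1, Pax5, Vpreb1 and Igll1 fell against the empty vector. All 8 members tested with Lmo2 were called, where 64.8% of all tested probes were called, 28.0% as higher and 36.8% as lower. Cd79a was not tested there because it was below background in both vector groups.

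**Figure D2:**
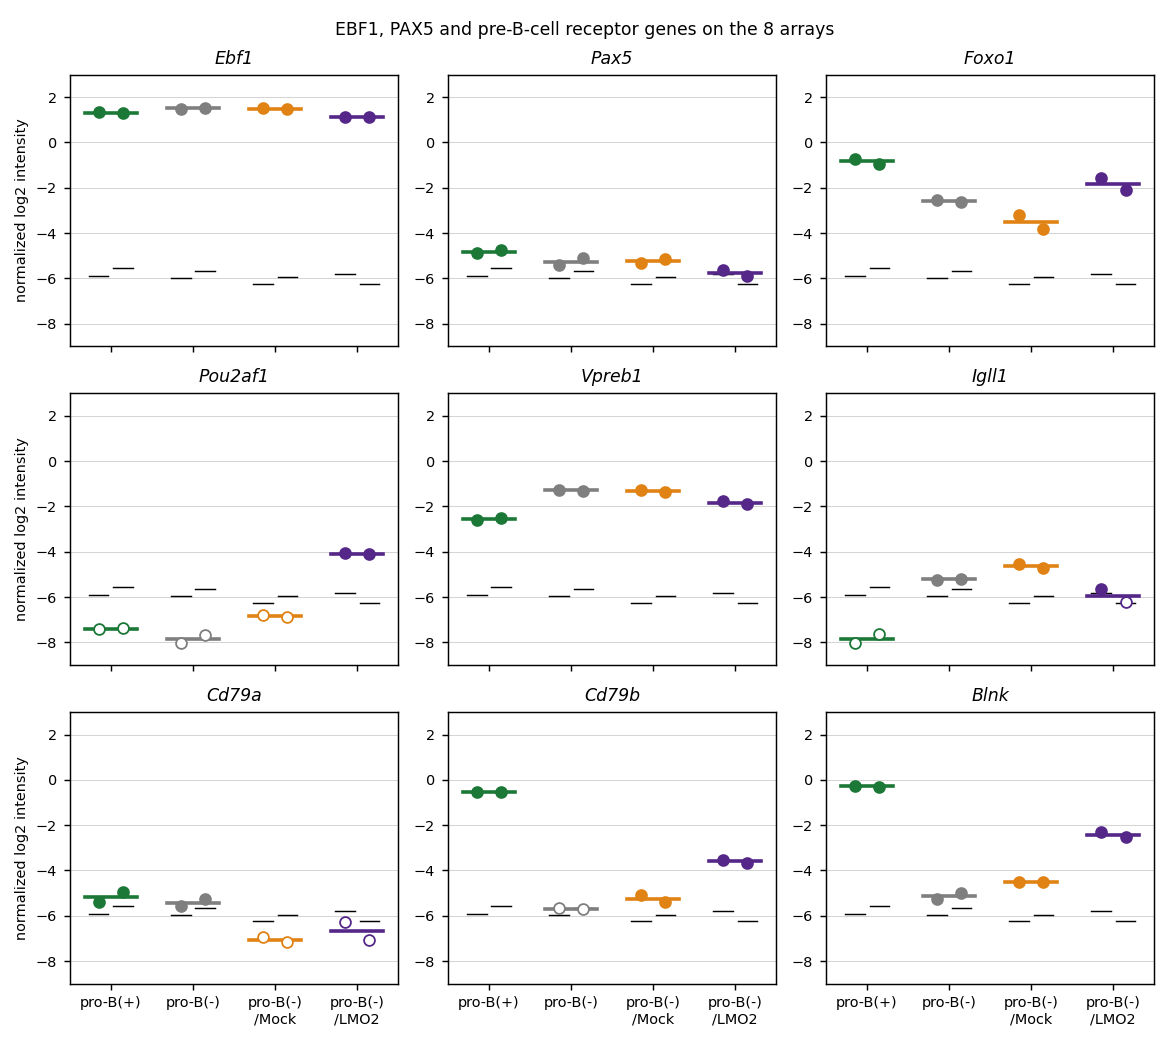
Normalized log2 intensity (y axis) of each gene on the 8 arrays, 2 points per group, with the group mean as a coloured line; the first listed probe stands for Foxo1. Filled points are well above background, open points are not, and short black lines give the floor of each array. Cd79b and Blnk are highest in pro-B(+) and next in pro-B(-)/LMO2, and Pou2af1 has filled points in pro-B(-)/LMO2 alone.

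The labelled cell type was checked against markers. Of 11 pro-B or lymphoid progenitor markers, 10 in pro-B(+) and LMO2 and 11 in pro-B(-) and Mock were above background on both arrays, with summed levels (log2 of summed normalized intensities) of 5.32 to 5.76. The members Vpreb1 and Igll1 are on this marker list, so it is not independent of them. Igll1 was the marker that fell short in pro-B(+) and LMO2. Of 5 markers of later B cells, 2 in pro-B(+) and 3 in each of the other groups were above background on both arrays, with summed levels of -1.93 to -1.47. Among them Cd22 and Fcer2a were above background on all 8 arrays and Ms4a1 on none. Markers of other cells differed between the groups that Cd79b, Blnk and Foxo1 separated. The summed level of 8 stromal markers, all above background in pro-B(+) and 7 of them in pro-B(-), was 4.26 to 4.32 in pro-B(+), 2.99 to 3.03 in pro-B(-), 4.49 to 4.56 in Mock and 4.93 to 4.98 in LMO2. The summed level of 8 myeloid markers was 5.67 to 5.68, 3.26 to 3.38, 3.39 to 3.45 and 4.67 to 4.74 in the same order, with 8, 5, 5 and 6 of them above background on both arrays. S100a8 and S100a9 were not above background in any group but pro-B(+), and Lyz2 was not above background in pro-B(-) and Mock. The part of these cells in the results was not tested, and in bulk RNA fewer cells of a type and less RNA per cell cannot be told apart.

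Cd79b, the Ig-beta chain, read -0.53 and -0.53 in pro-B(+) cells, -5.66 and -5.71 in pro-B(-), -5.08 and -5.40 in pro-B(-)/Mock and -3.52 and -3.65 in pro-B(-)/LMO2. The pro-B(+) arrays stood far above all others, the LMO2 arrays came next, and none of the 4 groups overlapped. It was not well above background in pro-B(-) cells, so the difference between the lines is a bound, at least 35-fold higher in pro-B(+) (log2 change 5.15, SE 0.11, adjusted p = 1.4e-06 in limma). With Lmo2 it rose 3.15-fold (log2 change 1.66, SE 0.109, adjusted p = 6.5e-05 in limma). The level reached with Lmo2 remained lower than in pro-B(+) cells by 3.05 on the log2 scale, across slides (adjusted p = 6.0e-06 in limma).

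Blnk, the adaptor below SYK, had a similar profile. It read -0.26 and -0.30 in pro-B(+), -5.26 and -5.01 in pro-B(-), -4.51 and -4.53 in pro-B(-)/Mock and -2.31 and -2.52 in pro-B(-)/LMO2, and was above background on every array. The groups were again separate, with a gap of 4.72 between the parental lines and of 1.99 between the vector groups. Pro-B(+) cells had 28.9-fold more signal than pro-B(-) cells (log2 change 4.86, SE 0.102, adjusted p = 1.3e-06 in limma), and Lmo2 raised it 4.29-fold (log2 change 2.10, SE 0.102, adjusted p = 2.2e-05 in limma). Cd79b and Blnk were the 2 of 8 tested members with a difference of 10-fold or more in favour of pro-B(+), a size reached by 1.77% of tested probes. Normexp background correction, which adds an offset of 50 to each intensity, gave smaller changes with the same calls, 2.79 and 0.53 for Cd79b and 2.99 and 1.002 for Blnk. Lcp2, the SLP-76 adaptor related to Blnk, was up by at least 3-fold in pro-B(+) and by at least 6.81-fold with Lmo2 (adjusted p = 5.0e-04 and 1.4e-05 in limma).

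Cd79a, the Ig-alpha chain, did not follow Cd79b. It read -5.41 and -4.95 in pro-B(+) and -5.58 and -5.25 in pro-B(-), which overlapped, and the difference of 0.24 had a 95% interval from -0.50 to 0.98 (adjusted p = 0.54 in limma). Its sign changed under other scalings, to -0.05 with median scaling and to -0.12 with quantile normalization. In the vector groups it read -6.94 and -7.17 with the empty vector and -6.27 and -7.06 with Lmo2, none of them well above background. Against the parental pro-B(-) cells, pro-B(-)/Mock was lower by at least 1.61-fold, a comparison across slides (adjusted p = 0.005 in limma).

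The surrogate light chain genes were both lower in pro-B(+) cells. Vpreb1 read -2.60 and -2.53 in pro-B(+), -1.27 and -1.30 in pro-B(-), -1.25 and -1.38 in pro-B(-)/Mock and -1.77 and -1.90 in pro-B(-)/LMO2. The pro-B(-) and Mock arrays overlapped at the top, and the pro-B(+) arrays were lowest. The parental lines differed in Vpreb1 by 2.44-fold (log2 change -1.29, SE 0.0651, adjusted p = 3.4e-05 in limma) and fell 1.43-fold with Lmo2 (log2 change -0.52, SE 0.0648, adjusted p = 8.5e-04 in limma). Vpreb2 is a near copy of Vpreb1, and the probe sequences were not used here, so signal shared between the pair cannot be told apart. The Vpreb2 probe was at least 1.86-fold lower in pro-B(+) (adjusted p = 0.0053 in limma), and its change with Lmo2 was 0.01 with a 95% interval from -0.39 to 0.42.

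Igll1 read -8.02 and -7.65 in pro-B(+), -5.23 and -5.20 in pro-B(-), -4.52 and -4.74 in pro-B(-)/Mock and -5.65 and -6.23 in pro-B(-)/LMO2. Neither pro-B(+) array and only 1 of 2 LMO2 arrays was above background, and no groups overlapped. The pro-B(+) level was lower than that of pro-B(-) by at least 1.44-fold (measured means -7.84 and -5.22, adjusted p = 2.6e-04 in limma). With Lmo2 it fell 2.49-fold (log2 change -1.31, SE 0.216, adjusted p = 0.0026 in limma). Under normexp these log2 changes were -0.32 and -0.33. Over the 8 arrays Vpreb1 and Igll1 had r = 0.975, Cd79b and Blnk had r = 0.986, and Vpreb1 and Cd79b had r = -0.989, values that describe 4 groups of 2 arrays with shared scaling. Vpreb3, a B-lineage protein related to VpreB, was below background in the parental lines and 2.93-fold higher with Lmo2 (adjusted p = 0.0025 in limma). Only 1 of 2 Mock arrays was above background for Vpreb3, so the size of this rise is uncertain.

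Foxo1 was measured by both of its probes. The first (A_51_P138044) read -0.72 and -0.95 in pro-B(+), -2.53 and -2.62 in pro-B(-), -3.21 and -3.83 in pro-B(-)/Mock and -1.57 and -2.12 in pro-B(-)/LMO2. The second (A_52_P453884) read -1.13 and -1.13, -3.06 and -2.98, -3.47 and -3.52, and -2.70 and -2.70 in the same order. Both gave the same order of groups, with pro-B(+) highest and Mock lowest and no overlap. Pro-B(+) exceeded pro-B(-) cells 3.34-fold by the first probe (log2 change 1.74, SE 0.258, adjusted p = 0.0029 in limma) and 3.7-fold by the second (log2 change 1.89, SE 0.0387, adjusted p = 1.2e-06 in limma). The rise with Lmo2 was 3.19-fold by the first (adjusted p = 0.002 in limma) and 1.73-fold by the second (adjusted p = 2.3e-05 in limma). Foxo3, a relative of Foxo1, was 1.21-fold lower in pro-B(+) and rose 1.63-fold with Lmo2 (adjusted p = 0.032 and 5.1e-04 in limma). It was 1.6-fold lower in Mock than in pro-B(-), across slides (adjusted p = 9.0e-04 in limma). Its mean was -4.18 in LMO2 and -4.21 in pro-B(-).

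Pou2af1 was the member seen in 1 group alone. It read -4.05 and -4.11 in pro-B(-)/LMO2 and was not well above background elsewhere, at -7.43 and -7.37 in pro-B(+), -8.01 and -7.68 in pro-B(-) and -6.78 and -6.89 in pro-B(-)/Mock. Both LMO2 arrays lay above the floors and all 6 others below them. The rise with Lmo2 was at least 4.06-fold against the empty vector (measured log2 change 2.75, SE 0.112, adjusted p = 1.2e-05 in limma), and the log2 change was 0.52 under normexp. Pou2f2, which encodes the octamer protein OCT2 that OBF1 binds, was 2.23-fold higher in pro-B(+) and 3.42-fold higher with Lmo2 (adjusted p = 4.4e-05 and 7.0e-06 in limma), whereas Pou2f1, which encodes OCT1, was lower by 0.12 and 0.10 on the log2 scale (adjusted p = 0.023 and 0.032 in limma).

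The Ebf1 probe read 1.34 and 1.30 in pro-B(+), 1.50 and 1.53 in pro-B(-), 1.50 and 1.48 in pro-B(-)/Mock and 1.11 and 1.13 in pro-B(-)/LMO2. It was well above background on all 8 arrays of these Ebf1-deficient cells, and its position relative to the mutated part of the gene was not examined, so it checks nothing about the mutation. Pro-B(+) signal was 1.14-fold lower (log2 change -0.19, SE 0.0337, adjusted p = 0.0057 in limma) against pro-B(-), and Lmo2 lowered it 1.29-fold against the empty vector (log2 change -0.37, SE 0.0338, adjusted p = 2.3e-04 in limma). Ebf3, a relative of Ebf1, was 1.58-fold higher in pro-B(+) and 1.52-fold higher with Lmo2 (adjusted p = 4.3e-04 and 3.4e-04 in limma). Ebf2 was below background in all groups and Ebf4 passed neither test (adjusted p = 0.16 and 0.38 in limma).

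Pax5 lay close to the floors throughout. Its brighter probe read -4.89 and -4.77 in pro-B(+), -5.43 and -5.11 in pro-B(-), -5.34 and -5.13 in pro-B(-)/Mock and -5.63 and -5.88 in pro-B(-)/LMO2, and its other probe was not above background on any array. The difference between the parental lines was 0.44 (95% interval 0.07 to 0.80, adjusted p = 0.053 in limma), and without pro-B(-) replicate 2 it was 0.60 (adjusted p = 0.036). With Lmo2 Pax5 fell 1.43-fold (log2 change -0.52, SE 0.144, adjusted p = 0.021 in limma). That call was lost without Mock replicate 2 (-0.41, adjusted p = 0.11), without LMO2 replicate 2 (-0.40, adjusted p = 0.11) and when every probe was tested (adjusted p = 0.057).

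**Figure D3:**
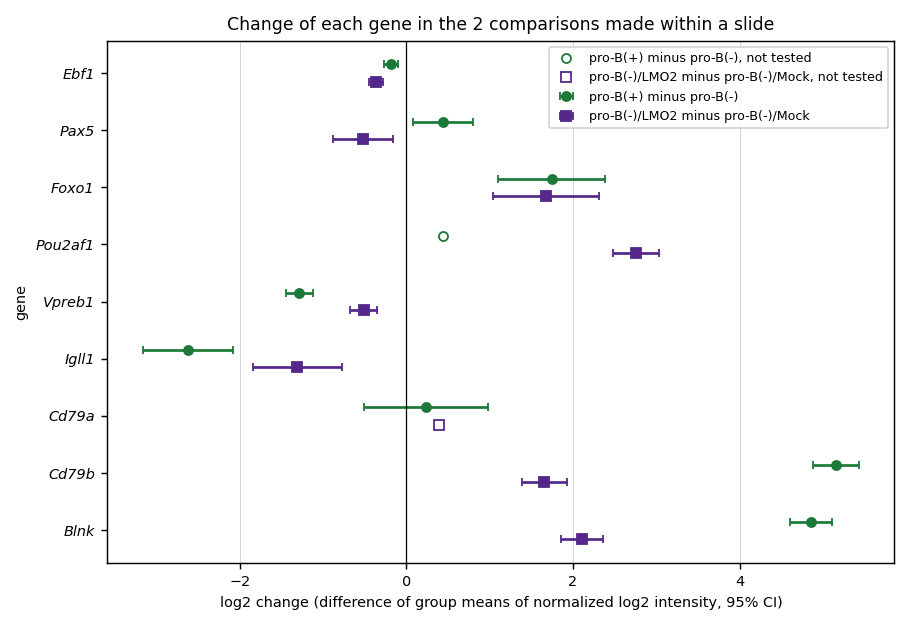
Log2 change of each gene (x axis, difference of group means with the 95% confidence interval) for pro-B(+) minus pro-B(-) in green circles and pro-B(-)/LMO2 minus pro-B(-)/Mock in purple squares; open symbols were not tested, and the first listed probe stands for Foxo1. Cd79b and Blnk lie farthest to the right in green, and Pax5 is the gene whose intervals lie on opposite sides of 0.

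Of the members, 7 had a called difference between the 2 comparisons when the difference itself was tested on the same 8 arrays, where 54.0% of tested probes passed that test. For Cd79b and Blnk the change between the lines exceeded the change with Lmo2 by 3.50 and 2.75 on the log2 scale (adjusted p = 4.4e-05 and 7.8e-05 in limma). Vpreb1 also changed more between the lines, by -0.77 (adjusted p = 0.0013 in limma). For Igll1 the fitted difference was -1.31 (adjusted p = 0.016 in limma), but it rests on pro-B(+) readings below background, for which the change between the lines is only bounded at 1.44-fold or more against 2.49-fold with Lmo2, so the sizes of its changes cannot be ordered. Under normexp the Igll1 difference was 0.014 (adjusted p = 0.88). The Igll1 call was also lost without Mock replicate 2 (adjusted p = 0.056) or without pro-B(-) replicate 2 (adjusted p = 0.052). Pou2af1 changed more with Lmo2 (difference -2.31, adjusted p = 1.9e-04 in limma), where the parental values were below background. Pax5 differed by 0.95 (adjusted p = 0.012 in limma). Ebf1 differed by 0.18 (adjusted p = 0.024 in limma), a call that was lost in 9 of 19 alternatives, among them leaving out pro-B(+) replicate 1, pro-B(-) replicate 1 or any of the Mock and LMO2 arrays (adjusted p = 0.053 to 0.077). The Foxo1 probes disagreed, with a difference of 0.07 by the first (adjusted p = 0.89) and of 1.09 by the second (adjusted p = 6.4e-05 in limma). For Cd79a the difference was -0.15, with a 95% interval from -1.22 to 0.92.

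The empty vector line was also set against its parent, across slides, where 59.3% of tested probes were called. Of 8 members tested, 4 were called. Foxo1 was 1.92-fold lower in Mock by its first probe and 1.39-fold lower by its second (adjusted p = 0.022 and 2.5e-04 in limma), Cd79a was lower, as given above, Cd79b was at least 1.34-fold higher and Blnk 1.53-fold higher (adjusted p = 0.016 and 0.0035 in limma). The call of the first Foxo1 probe was lost without Mock replicate 2 (adjusted p = 0.097), without pro-B(-) replicate 1 (0.09) and without pro-B(-) replicate 2 (0.078). The Cd79b call was lost without pro-B(-) replicate 1 (0.053) or replicate 2 (0.077), and under normexp, where the log2 change was 0.074 (adjusted p = 0.22). In the other comparisons across slides, 8 of 8 tested members were called between LMO2 and pro-B(+), where 76.4% of probes were called, 7 of 8 between pro-B(+) and Mock, where 68.7% were called, and 9 of 9 between LMO2 and pro-B(-), where 74.8% were called. The last count was 5 to 8 with any 1 array left out, lowest without pro-B(-) replicate 2. Between Mock and its parent, the differences of Ebf1 (-0.02), Pax5 (0.03) and Vpreb1 (-0.04) had 95% intervals from -0.11 to 0.06, from -0.33 to 0.39 and from -0.20 to 0.12. The order of the means was therefore pro-B(+), LMO2, Mock, pro-B(-) for Cd79b and Blnk, and pro-B(+), LMO2, pro-B(-), Mock for Foxo1, with each neighbouring pair called. The step between LMO2 and pro-B(-) by the first Foxo1 probe (adjusted p = 0.043 in limma) was lost in 7 of 15 alternatives, among them leaving out either pro-B(-) array (0.11 and 0.15) or LMO2 replicate 1 (0.2). Its step between pro-B(+) and LMO2 was lost without pro-B(+) replicate 1 (0.07) or LMO2 replicate 2 (0.064). For Vpreb1 pro-B(-) and Mock led without a called difference, followed by LMO2 and pro-B(+), and for Ebf1 they led likewise, followed by pro-B(+) and LMO2.

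Among 24 other early B-lineage transcription factors, 22 were tested between the parental lines, with 11 called as higher and 6 as lower in pro-B(+) (median change 0.22), and with Lmo2 13 rose and 5 fell of 23 tested (median 0.35). Of all tested probes, 20.8% were called as higher and 28.1% as lower between the lines, and 28.0% and 36.8% with Lmo2. In Mock against its parent, across slides, 12 factors were higher and 5 lower among 22 tested, beside all-probe shares of 28.9% and 30.4%. These lists were drawn up with results of these data known, and the medians of all tested probes were -0.04 and -0.05. Bcl11a, a zinc-finger factor needed for early lymphoid development, had the highest change between the lines, from -3.04 in pro-B(-) to 2.53 in pro-B(+), a 47.7-fold difference, and rose 58.2-fold with Lmo2 (adjusted p = 2.4e-07 and 1.8e-07 in limma). Spib, an ETS factor related to PU.1, was 8.71-fold higher in pro-B(+) and rose 5.24-fold with Lmo2. Id3, an inhibitor of E proteins, was 7.67-fold higher in pro-B(+) but rose only 1.15-fold with Lmo2 (adjusted p = 0.028 in limma). It was 2.5-fold higher in Mock than in its parent, across slides (adjusted p = 3.1e-05 in limma). Lef1 was at least 26-fold higher with Lmo2. Irf4 and Irf8, which act redundantly in pre-B cells, were 7.08-fold and 4.28-fold higher in pro-B(+) and rose 3.49-fold and 3.52-fold with Lmo2. Spi1 (PU.1) was 1.46-fold higher in pro-B(+) and rose 1.27-fold with Lmo2. Tcf3, which encodes E2A, passed neither test (log2 changes -0.08 and -0.13). Ikzf1 was 1.1-fold higher in pro-B(+), with a change of 0.04 with Lmo2 that did not pass. The log2 change of Ikzf1 between the lines, 0.14, is smaller in size than the -0.29 by which median scaling shifted the median probe. Its direction therefore depends on the scaling.

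Of 26 genes of pre-B-cell receptor signalling, 10 were higher and 6 lower in pro-B(+) among 23 tested (median 0.02), and 15 rose and 2 fell with Lmo2 among 22 tested (median 0.46), against the same all-probe shares of 20.8% higher and 28.1% lower between the lines and 28.0% and 36.8% with Lmo2. In Mock against its parent, across slides, 3 were higher and 8 lower among 22 tested, beside all-probe shares of 28.9% and 30.4%. Part of the rise against Mock may thus be a return to the parental level, which was not tested. In pro-B(+), Rasgrp3, an activator of RAS, was higher by at least 9.29-fold, and Prkcb, the protein kinase C beta chain, was 10.4-fold higher. With Lmo2 Pik3cd, a catalytic chain of PI3-kinase, rose 2.19-fold. Of the kinases next to BLNK, Syk differed by 0.00 between the lines, with a 95% interval from -0.11 to 0.11, and rose 1.47-fold with Lmo2. Btk was 1.09-fold higher in pro-B(+) and fell 1.17-fold with Lmo2. Its log2 change between the lines, 0.12, is smaller in size than the -0.29 by which median scaling shifted the median probe. The direction of that Btk difference therefore depends on the scaling.

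Of 23 B-lineage surface and other EBF1 or PAX5 target genes, 6 were higher and 5 lower in pro-B(+) among 20 tested (median 0.00), and 9 rose and 1 fell with Lmo2 among 18 tested (median 0.27). Over all tested probes these shares were 20.8% and 28.1% between the lines and 28.0% and 36.8% with Lmo2, which also stand beside the PAX5-repressed genes that follow. In Mock against its parent, across slides, 6 of these target genes were higher and 7 lower among 19 tested. The all-probe shares were 28.9% and 30.4% there. Cd55, which protects cells from complement, was 15.3-fold lower, and Bcar3 10.9-fold higher, in pro-B(+). Cd55 was also at least 44.8-fold lower in Mock than in its parent, across slides (adjusted p = 4.0e-06 in limma). It was below background in both vector groups. Bst1 read -3.35 and -3.43 in pro-B(+) against -4.76 and -6.85 in pro-B(-), where only 1 of 2 arrays was above background, so the size of its difference (adjusted p = 0.026 in limma) depends on the pro-B(-) array. With Lmo2, Ly6d rose 6.81-fold and Cxcr5 3.22-fold, and Cd24a fell 4.55-fold, each against the empty vector. Mock itself exceeded its parent, across slides, 3.05-fold for Ly6d, 5.09-fold for Cxcr5 and 2.67-fold for Cd24a (adjusted p = 3.8e-06, 1.2e-06 and 4.6e-06 in limma). The Cd24a means were 0.94 in pro-B(-), 2.35 in Mock and 0.17 in LMO2. Of 13 genes that PAX5 represses, 9 were higher and 3 lower in pro-B(+) (median 0.78), and 10 rose and 2 fell with Lmo2 (median 0.75). In Mock against its parent, 4 of the 13 were higher and 7 lower. Csf1r was 21.8-fold, Cd7 16.7-fold and Ly6a 8.41-fold higher in pro-B(+), and with Lmo2 Cd7 rose 56-fold, Ccl3 rose 7.04-fold and Sdc1 fell 7.52-fold. Csf1r is also among the myeloid markers above. In Mock against its parent, across slides, Ly6a was 6.02-fold and Cd7 2.21-fold higher and Csf1r 1.49-fold lower (adjusted p = 3.4e-06, 1.5e-05 and 2.4e-04 in limma). Of 9 immunoglobulin and recombination genes, 4 had a named probe, and Ighm was not among them. Dntt, which adds bases at the joints, was 7.55-fold lower in pro-B(+) but rose 16.2-fold with Lmo2. Rag1 and Rag2, the recombinase genes, were 1.71-fold and 1.67-fold lower in pro-B(+) and fell 6.89-fold and 4.33-fold with Lmo2. These genes also differed between Mock and its parent, across slides, in the same directions as with Lmo2. There Dntt was 4.82-fold higher, Rag1 2.04-fold lower and Rag2 1.88-fold lower in Mock (adjusted p = 8.5e-06, 0.0016 and 2.1e-05 in limma).

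**Figure D4:**
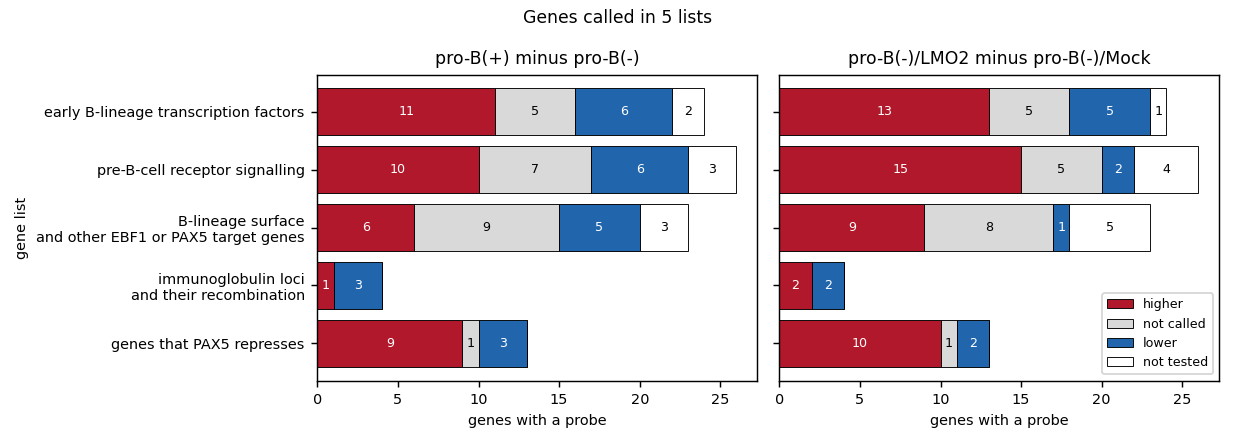
Number of genes with a probe (x axis) in 5 lists (y axis) that were called higher (red), called lower (blue), tested and not called (grey) or not tested (white), between the parental lines at left and with Lmo2 at right. Of the genes that PAX5 represses, 9 and 10 of 13 are red.

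The genes whose profile was most like that of a member, by Pearson correlation over the 8 arrays among 2693 or 2694 named genes that were above background on all arrays and spanned at least 1 on the log2 scale, give a further description. Blnk was closest to Gsg1 (r = 0.999), Cldn12 and Zfp703, and Cd79b to Agpat4 (r = 0.9982), Tlr2 and Apobec1. Vpreb1 was closest to B3gnt2 (r = 0.9909) and Igll1 to Selenom (r = 0.9913). Pou2af1 was closest to Txnip (r = 0.9967), on values that were below background in 6 arrays, and Foxo1 to Rgs2 (r = 0.9807). Other genes came close, as 89 genes passed an r of 0.98 for Pou2af1, 40 for Cd79b and 35 for Blnk.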

How the data were processed

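Total RNA of 8 samples, 2 in each of 4 groups taken from the sample titles, was labelled with Cy3 and hybridised to whole mouse genome arrays. The spot intensity in the deposited scanner tables comes from Agilent Feature Extraction 11.5.1.1 and was already background subtracted and detrended, per the file headers. The authors also deposited log2 values after 75th percentile normalization, which differed from log2 of the scanner intensity by a constant per array and served as an alternative; their column medians were -4.53 to -4.19.

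Control spots and outlier spots were left out and spots of a probe averaged, which left 39378 of 39429 probes. Values are log2 processed intensities from which the 75th percentile of the array was subtracted. Transcript accessions were matched without versions to RefSeq symbols (GRCm38.p6), which named 26550 probes (67.4%). The probe with the highest mean stands for a gene. All 8 arrays entered 1 limma 3.58.1 fit (R 4.3.3) with 4 group means, 4 residual degrees of freedom and empirical Bayes moderation over the probes tested, those well above background on all arrays of 1 or more of the groups compared. The threshold was an adjusted p of 0.05 (Benjamini-Hochberg over these probes). Moderation over all probes was also run, and the choice between these forms was made after results of both were known. The script was tested on simulated data.

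With 2 arrays against 2, an exact permutation test cannot go below p = 0.333, so the number of arrays limits precision. A group with no array above background has only a bound, written "at least": the bright mean is set against a dim mean in which each array counts with its floor or the value of the probe, whichever is higher. Named genes were the 9 members, their relatives, and up to 3 called genes with the largest change per list and comparison, of which some are not reported here. The members, lists and markers were chosen with earlier results of these data known. Alternatives changed the scaling, background correction, filter, moderation, arrays in the fit, and slide or replicate block.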

Additional observations from a re-analysis of the deposited data

Results flagged for a closer look

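For 7 genes the change between the parental lines, pro-B(+) minus pro-B(-), differed from the change with Lmo2, LMO2 minus Mock, by the test of that difference in limma, which 54.0% of all tested probes also passed. The differences on the log2 scale were 3.50 for Cd79b (adjusted p = 4.4e-05), 2.75 for Blnk (adjusted p = 7.8e-05), -2.31 for Pou2af1 (adjusted p = 1.9e-04), -0.77 for Vpreb1 (adjusted p = 0.0013), -1.31 for Igll1 (adjusted p = 0.016), 0.95 for Pax5 (adjusted p = 0.012) and 0.18 for Ebf1 (adjusted p = 0.024). Cd79b and Blnk were higher on the pro-B(+) side and with Lmo2, and Vpreb1 and Ebf1 were lower in both comparisons, so their differences are of size. Igll1 was also lower in both, but its difference rests on pro-B(+) values below background and was 0.014 under normexp (adjusted p = 0.88), so no difference of size is drawn for it. The Pou2af1 difference rests on parental values below background.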

How the results depend on the processing

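Over 20 alternatives, 65 member results gave 1015 values, of which 947 kept their direction and side of the threshold, 42 lost a call, 10 gained one and 16 changed sign. In 44 of the 65 results nothing changed. With median scaling 18584 probes were called between the parental lines against 11477, and Cd79a between the lines became -0.049 and the difference of the first Foxo1 probe -0.012. Quantile normalization gave -0.12 for Cd79a between the lines and -0.037 for Pax5 in pro-B(+) against Mock. Normexp gave 0.036 for Ebf1 in Mock against pro-B(-), -0.036 for Pax5 in pro-B(+) against Mock and 0.014 for the Igll1 difference. When probes had to be above background on all arrays compared, fewer were tested, and 5 members instead of 9 were called in LMO2 against pro-B(-) and 4 instead of 7 for the difference. None of the sign changes was a called value except the Igll1 difference, and the cause was not tested.

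Leaving out 1 array at a time changed the sign of the first Foxo1 probe's difference to -0.044 (without pro-B(+) replicate 1), -0.24 (without Mock replicate 1) and -0.21 (without LMO2 replicate 2), within a range of -0.24 to 0.38, and that of Cd79a, within a range of -0.55 to 0.24, to 0.076, 0.017 and 0.24 (without pro-B(+) replicate 1, pro-B(-) replicate 2 and LMO2 replicate 1). In Mock against pro-B(-), Vpreb1 became 0.029 and Pax5 -0.075 without Mock replicate 2, and Pax5 became -0.13 without pro-B(-) replicate 1; the ranges were -0.10 to 0.029 and -0.13 to 0.19. Members called ranged from 2 to 4 in Mock against pro-B(-), from 5 to 8 in LMO2 against pro-B(-), from 5 to 7 for the difference, from 7 to 8 with Lmo2 and in LMO2 against pro-B(+), and from 6 to 7 between the lines. Probes called ranged from 8706 to 9714 between the lines and from 13106 to 13572 with Lmo2. A lone array was assumed to vary like the other groups.

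The replicate numbers do not pair the arrays (correlations of deviations -0.0272 to 0.0515), and with the replicate number as a block 11221 probes were called between the lines and 14713 with Lmo2, with no member call changed. Chosen after seeing the data, moderation over all probes called 9561 between the lines and lost the Ebf1 difference (adjusted p = 0.067) and the first Foxo1 probe in LMO2 against pro-B(-) (adjusted p = 0.061). Signal over background limits Pax5, Cd79a, Igll1 and Pou2af1.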
